A study of Homo sapiens with 6 samples.

Results

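Lipid and cholesterol metabolism genes were followed in A549, an established human lung adenocarcinoma cell line with alveolar epithelial features, after mitoxantrone, an anthracenedione drug that intercalates into DNA and poisons topoisomerase II. The authors' deposited table lists 4546 genes that they had already selected as different between cells given mitoxantrone and cells given the solvent DMSO. A gene was taken as a lipid gene when any of its annotation terms joined lipid, cholesterol or fatty acid to a metabolic or biosynthetic process, and transporters, glycosyltransferases and a few other families were left out by the start of their symbols. The rule gave 139 of the 4546 genes and left out a further 11 by symbol. The rule did not use expression values, but all of the listed genes were selected by the authors on this same contrast, so the calls below describe the genes and are not independent evidence. A gene that is not in the table had not been selected by the authors, and its level is not analysed here.

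Polyadenylated or rRNA-depleted RNA (the labels name both procedures) was sequenced as 150-base read pairs in 3 libraries from cells given DMSO at a dilution of 1 in 1000 and 3 libraries from cells given 50 nM mitoxantrone, each for 48 hours. The labels name no engineered change or other agent in either group. The labels do not say whether the 3 libraries of a group came from separate cultures, so the p-values rest on the spread between libraries, which may be technical. Library totals, recovered from the deposited FPKM values, ran from 16681380 to 21781220 reads. The lipid genes took 0.795 to 0.806% of the reads in the DMSO libraries and 1.14 to 1.19% in the mitoxantrone libraries. All listed genes took 17.1 to 17.3% with DMSO and 16.9 to 17.2% with mitoxantrone. These shares cover only genes that the authors selected as different, and not all lipid genes of the cells. Of 5 epithelial markers, KRT8 (log2 fold change 1.11), KRT19 (3.73) and CDH1 (1.01) were listed, all higher with mitoxantrone, and their summed normalized counts lay between 59097 and 67895 with DMSO and between 139689 and 153714 with mitoxantrone. None of 8 markers of alveolar type II cells was listed. Among markers of other cell types, 1 of 5 adipocyte, 1 of 5 hepatocyte, 1 of 7 leukocyte and 3 of 8 fibroblast or endothelial markers were listed. The leukocyte marker CD14 lay between 19.7 and 27.9 normalized counts (raw counts divided by the library's size factor) with DMSO and between 93.2 and 105 with mitoxantrone, the hepatocyte marker AHSG never passed 16.9 and the adipocyte marker CIDEC never passed 61.0. The summed fibroblast and endothelial markers, nearly all COL1A1 (log2 fold change -1.22), lay between 575 and 645 with DMSO and between 250 and 322 with mitoxantrone, while the rare endothelial genes CDH5 (4.43) and VWF (2.85) were higher and never passed 11.3 and 14.5 normalized counts. Whether these genes have a part in the lipid results was not tested.

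Cells build cholesterol from acetyl-CoA through the mevalonate pathway to squalene and then to sterols in the endoplasmic reticulum, and sterol-sensing proteins there set how much is made and taken up. Phospholipids and sphingolipids form the membranes. Phospholipases and lysosomal hydrolases take them apart, and some of the pieces, such as ceramide, phosphoinositides and lysophospholipids, act as signals. In alveolar epithelium these pathways also supply the phospholipids of surfactant.

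Of the 139 lipid genes 108 were higher and 31 lower with mitoxantrone (edgeR, quasi-likelihood F-test, adjusted p up to 0.05). Over all 4546 listed genes 58.9% were called higher and 41.1% lower, while 77.7% of the lipid genes were called higher. Their median log2 fold change was 1.38, beside 1.20 over all listed genes, whereas the median absolute change was smaller, 1.50 beside 1.70. The values of the groups did not overlap for 137 of the 139 genes, beside 98.3% of all listed genes. In a test against a 2-fold change 114 lipid genes passed (82.0%), 91 higher and 23 lower, beside 80.6% of all listed genes. A mean of at least 50 normalized counts in the higher group was reached by 108 lipid genes, 78 higher (72.2%) and 30 lower, beside 1353 higher (47.2%) and 1515 lower of the 2868 listed genes at that level. Of these 108 lipid genes 14 rose and 4 fell by more than 4-fold. The same count was not made over all listed genes, so these numbers are a description. In bulk libraries fewer cells that express a gene and less of its RNA per cell cannot be told apart. Because 3 libraries are compared with 3, an exact permutation test of a single gene could not go below 0.10, and the p-values given are those of the model fitted across all 4546 genes.

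**Figure D1:**
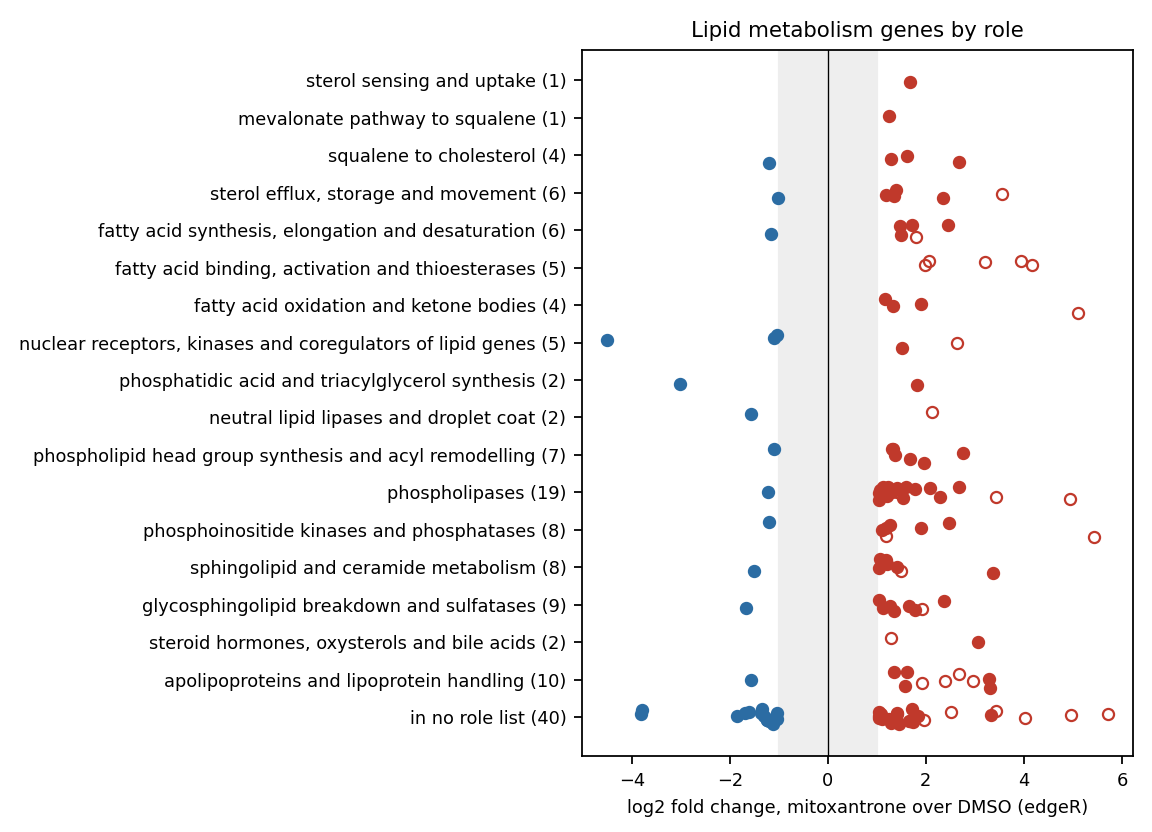
Log2 fold change of mitoxantrone over DMSO (x axis, edgeR) for the 139 lipid genes by role (y axis, number of genes in brackets), red for higher and blue for lower; filled points have a mean of at least 50 normalized counts in the higher group, open points less, and grey marks the range inside a 2-fold change, which the authors' selection leaves empty. Most roles held higher genes with 1 lower gene, and the genes in no role list were split between directions.

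To order the results, 19 groups of genes were drawn up, each for a step of lipid metabolism, and 99 lipid genes stood in a group while 40 stood in none. In the groups 85 of 99 were higher (85.9%), and among the others 23 of 40 (57.5%), beside 58.9% of all listed genes. The count of higher genes in each group below is to be read beside the 58.9%, and no group was tested against it. These groups were chosen with earlier results of these data known. Below, the values in brackets after a gene's counts are its log2 fold change of mitoxantrone over DMSO ± SE, and a mean normalized count of 3 libraries is given ± SD.

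The order of the lipid genes by level changed at the top. On the scale of FPKM, which corrects for gene length and depth and so allows genes to be compared, TRIB3 (356 ± 17.0 FPKM, SD, n = 3), PSAP (337 ± 5.26), AJUBA (158 ± 7.54), CTGF (85.7 ± 5.44) and CAV1 (84.2 ± 3.69) stood highest with DMSO. The libraries of TRIB3 and PSAP overlapped there, as did those of CTGF and CAV1. With mitoxantrone PSAP (657 ± 26.8), CAV1 (207 ± 9.71), FDXR (145 ± 7.93), CLU (96.2 ± 4.16) and C3 (91.6 ± 3.81) led, and the libraries of CLU and C3 overlapped. PSAP alone held 13.5% of the reads of all lipid genes with DMSO and 18.2% with mitoxantrone, while TRIB3 held 13.1% with DMSO.

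**Figure D2:**
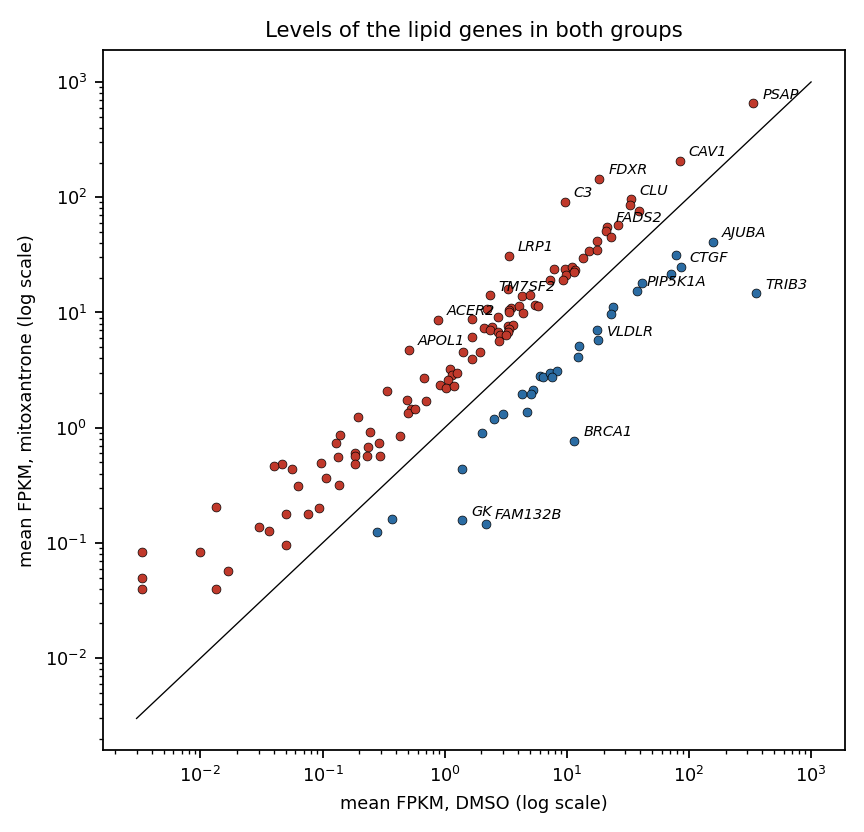
Mean FPKM with DMSO (x axis, log scale) and with mitoxantrone (y axis, log scale) for the 133 lipid genes above 0 in both groups, red for higher and blue for lower, with the line of equal level. PSAP, CAV1, FDXR, CLU and C3 were the 5 highest with mitoxantrone, and TRIB3 fell furthest below the line.

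Enzymes of cholesterol synthesis were mostly higher where they were listed, but most of the pathway was not listed. TM7SF2, a sterol C14 reductase of the endoplasmic reticulum, rose 6.37-fold. LBR, an inner nuclear membrane protein that carries the same reductase activity, fell 2.31-fold. Of 12 genes for sterol sensing and uptake only INSIG1 was listed, of 11 from the mevalonate pathway to squalene only FDFT1, and of 13 from squalene to cholesterol 4, among them TM7SF2, LSS and LBR. Not listed were SREBF2, HMGCS1 and SQLE among others, which puts them outside the authors' selection and does not give their change.

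TM7SF2 had normalized counts of 156, 138 and 154 with DMSO and 989.5, 937 and 932 with mitoxantrone (log2 fold change 2.67 ± 0.10, adjusted p = 2.3e-26). LBR had normalized counts of 1139, 1173 and 1378 with DMSO and 443, 571 and 578 with mitoxantrone (-1.21 ± 0.09, adjusted p = 1.1e-15). The mitoxantrone libraries were thus all above the DMSO libraries for TM7SF2 and all below them for LBR, and mitoxantrone library 1 was the lowest for LBR and the highest for TM7SF2. On the FPKM scale the ratio of TM7SF2 to LBR was 0.188 ± 0.020 (SD, n = 3) with DMSO and 2.82 ± 0.54 with mitoxantrone. The sum of the 2 went from 14.8 ± 1.45 to 19.1 ± 0.50 FPKM. The pair was set side by side after its values were seen, so the ratio is a description.

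The bases just before the start of the 2 reductase genes are shown because the genes share an activity and moved in opposite directions. They come from RefSeq on GRCh38.p14, 5′ to 3′ on the strand of the gene, with capitals marking an NF-Y box (CCAAT or its complement ATTGG) or an Sp1 box (GGGCGG or its complement CCGCCC). The TM7SF2 window is chr11:65111752-65111871 on the plus strand, and the LBR window is chr1:225428822-225428941 on the minus strand. Both end at the base before the start taken from RefSeq for the gene. Other starts of either gene were not examined, so a window may hold bases transcribed from another start, and the matches below hold for the start used.
TM7SF2: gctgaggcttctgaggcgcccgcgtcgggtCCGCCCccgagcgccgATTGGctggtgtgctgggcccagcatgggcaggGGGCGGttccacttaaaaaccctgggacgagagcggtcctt
LBR: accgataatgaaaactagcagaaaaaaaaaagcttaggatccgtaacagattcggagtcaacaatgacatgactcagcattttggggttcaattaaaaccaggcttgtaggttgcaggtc
The TM7SF2 window held 1 NF-Y box and 2 Sp1 boxes, and 4 Sp1 boxes in the 250 bases before the start. The LBR window held neither, and neither was found in its 250 bases. Over all lipid genes with a RefSeq promoter (105 of 139), 36.2% had an NF-Y box and 63.8% an Sp1 box on either strand in those 250 bases, beside 33.0% and 42.3% of 27305 promoters and 36.4% and 60.7% of the 3021 matched listed genes. The core of the sterol regulatory element, TCACNCCAC, searched on both strands, stood in none of the 4 matched sterol genes, in 2 lipid genes (FABP6 and MID1IP1, 1.90%) and in 0.88% of all promoters. No match of 1 motif can be read as a match of another, and a match is a run of letters and not a measured site.

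The other sterol genes described here rose by less than TM7SF2. INSIG1, which holds the sterol sensor in the endoplasmic reticulum, had normalized counts of 152, 154 and 195 with DMSO and 489.9, 596 and 527 with mitoxantrone (1.69 ± 0.11, adjusted p = 1.5e-17). FDFT1, squalene synthase, had normalized counts of 1068, 1090 and 1072 with DMSO and 2634, 2513 and 2524 with mitoxantrone (1.25 ± 0.07, adjusted p = 5.9e-20). The groups did not overlap for either gene, and the libraries of FDFT1 lay closer together than those of INSIG1. LSS, lanosterol synthase, went from a mean of 447 ± 11.8 to 1096 ± 50.2 normalized counts (1.29 ± 0.08).

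**Figure D3:**
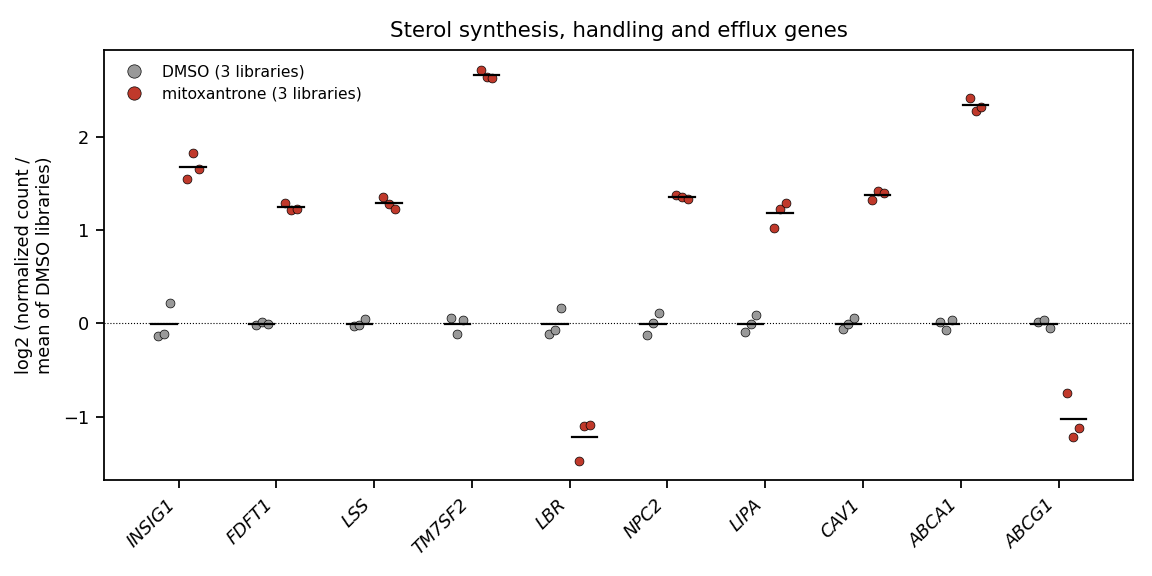
Each library's normalized count relative to the mean of the DMSO libraries (y axis, log2) for 10 genes of sterol synthesis, handling and efflux (x axis), grey for DMSO and red for mitoxantrone, with bars at the mean of the log2 values of 3 libraries. LBR and ABCG1 are the only genes drawn whose mitoxantrone libraries lie below the DMSO libraries, and TM7SF2 and ABCA1 lie highest.

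Genes for sterol handling and efflux were higher in 5 of 6 cases. ABCA1, which loads cellular cholesterol and phospholipid onto apolipoprotein A-I, had 484, 456 and 491 normalized counts in the DMSO libraries and 2557, 2329 and 2386 in the mitoxantrone libraries (2.34 ± 0.08, adjusted p = 7.5e-28), a 5.08-fold rise. ABCG1, which passes cholesterol to high-density lipoprotein, had 294, 299 and 281 normalized counts in the DMSO libraries and 173, 125 and 134 in the mitoxantrone libraries (-1.02 ± 0.12, adjusted p = 7.3e-10), a 2.03-fold fall whose excess over 2-fold was not significant. ABCG1 was, with UCP3 and BCL11B, among the 3 lipid genes with the smallest change in the authors' deposited table. The ratio of ABCA1 to ABCG1 in FPKM, also set side by side after the values were seen, was 0.88 ± 0.061 (SD, n = 3) with DMSO and 9.19 ± 1.07 with mitoxantrone.

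CAV1, the coat protein of caveolae and a cholesterol binder, had 6166, 6432 and 6700 normalized counts in the DMSO libraries and 16126, 17235 and 16998 in the mitoxantrone libraries (1.38 ± 0.06). NPC2, which takes cholesterol out of lysosomal membranes, had normalized counts of 997, 1091 and 1177 with DMSO and 2827, 2790 and 2741 with mitoxantrone (1.36 ± 0.07). Neither gene's groups overlapped, and the libraries of a group lay within a narrow range. LIPA, the lysosomal acid lipase that frees cholesterol from its esters, rose 2.28-fold, from 919 ± 56.9 to 2093 ± 199.5. Its exons overlap those of IFIT2 in GENCODE 29, which itself rose from 17.0 to 76.7 normalized counts. SOAT2, which esterifies cholesterol, had 2 reads in all DMSO libraries and 22 in all mitoxantrone libraries. Not listed were NPC1, SOAT1 and the oxysterol receptor genes NR1H2 and NR1H3.

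In fatty acid synthesis the listed genes were desaturases and elongation enzymes, 5 higher and 1 lower, while FASN, ACACA, ACLY and SCD were not listed. SCD5, a stearoyl-CoA desaturase, had 116, 138 and 178 normalized counts in the DMSO libraries and 772, 788 and 804 in the mitoxantrone libraries (2.46 ± 0.11, adjusted p = 4e-23), a 5.48-fold rise. FADS2, the delta-6 desaturase of polyunsaturated fatty acids, had 4055, 4395 and 4666 normalized counts in the DMSO libraries and 13031, 11944 and 11428 in the mitoxantrone libraries (1.47 ± 0.07). Its exons overlap those of FEN1, which fell from 1181 to 433 normalized counts, and of FADS1, which is not listed. FADS3, a relative of FADS2, rose 2.80-fold from 854 ± 75.1 to 2390 ± 222.

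The elongation cycle's dehydratase gene PTPLB, now named HACD2, was the lower gene, with 2349, 2227 and 2333 normalized counts in the DMSO libraries and 869, 1142 and 1075 in the mitoxantrone libraries (-1.16 ± 0.08, adjusted p = 4.1e-17). A second gene of that family, PTPLAD2 (HACD4), had normalized counts of 36.9, 33.4 and 30.2 with DMSO and 110.1, 121 and 103 with mitoxantrone (1.73 ± 0.19), from a low level of 0.183 to 0.573 FPKM. The 2 related genes thus moved in opposite directions with no overlap of groups, although PTPLB stayed the more abundant with 23.0 to 9.68 FPKM. ELOVL3 had 16 reads with DMSO and 45 with mitoxantrone.

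Fatty acid oxidation genes were higher where listed, 4 of 4 lipid genes, of which 3 had a mean of at least 50 normalized counts with mitoxantrone. CROT, which moves medium-chain acyl groups out of peroxisomes, had 183, 180.2 and 222 normalized counts in the DMSO libraries and 717, 745 and 729 in the mitoxantrone libraries (1.91 ± 0.10, adjusted p = 6e-21). ACAA1, the peroxisomal thiolase, had 742, 751 and 696 normalized counts in the DMSO libraries and 1714, 1598 and 1592 in the mitoxantrone libraries (1.16 ± 0.08). The highest DMSO library stayed well below the lowest mitoxantrone library for both of these, and both act in peroxisomes. ACOXL, an acyl-CoA oxidase relative, had 0 reads with DMSO and 11 with mitoxantrone. Of 56 genes in the group 6 were listed, all higher, and the 50 not listed included CPT1A, CPT2, ACADM and HADHA of the mitochondrial route. CPT1C, listed but annotated outside the rule, went from a mean of 45.2 to 130 normalized counts (1.52 ± 0.18).

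Fatty acid binding and activation genes came to 5, all higher and all rare. ACSL6, ACSL5 and ACSM5, which join fatty acids to coenzyme A, had 2, 9 and 1 reads over the DMSO libraries and 34, 31 and 10 over the mitoxantrone libraries. The fatty acid receptor CD36 had 1 and 17 reads, and the bile acid binder FABP6 had 18 and 57. None of these reached 50 normalized counts, and the other 31 genes of the group were not listed. Genes this rare could enter the table only through the group in which they were high, so their shared direction is a description. Of all listed genes under that level 78.9% were higher.

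Glycerolipid synthesis had a gene in each direction. LPIN3, a phosphatidate phosphatase of the lipin family, had 239, 228 and 228 normalized counts in the DMSO libraries and 852, 813 and 799.8 in the mitoxantrone libraries (1.82 ± 0.09, adjusted p = 2.1e-21). GK, glycerol kinase, had normalized counts of 106, 123 and 123 with DMSO and 14.5, 4.51 and 23.5 with mitoxantrone (-3.01 ± 0.26, adjusted p = 3.9e-14). Relative to their mean the mitoxantrone libraries of GK differed among themselves more than its DMSO libraries did, and without mitoxantrone library 3 its log2 fold change was -3.63. Exons of LPIN3 overlap EMILIN3, which had a mean of 7.13 normalized counts with DMSO and 16.7 with mitoxantrone, and exons of GK overlap GK-AS1, which is not listed. A further 4 genes of the group, for diacylglycerol kinases and a monoacylglycerol acyltransferase, were listed outside the rule, all higher. Of these DGKA, a diacylglycerol kinase, went from 304 to 1885 (2.63 ± 0.08). The others were rare, with 1 and 16 reads for DGKI, 0 and 11 for DGKK and 0 and 12 for MOGAT2 over the DMSO and mitoxantrone libraries.

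Among neutral lipid lipases LIPE, the hormone-sensitive lipase, had 120, 154 and 132 normalized counts in the DMSO libraries and 48.4, 44.0 and 43.9 in the mitoxantrone libraries (-1.57 ± 0.17, adjusted p = 6.6e-11). All mitoxantrone libraries were below all DMSO libraries. The overlapping LIPE-AS1 moved the other way, from 15.9 to 44.3 normalized counts, and reads of the 2 cannot be told apart if the libraries did not keep strand. CEL, the carboxyl ester lipase, had 20 and 70 reads. With droplet coat genes counted in, 5 of the 40 genes of the group were listed, 4 higher and 1 lower. Those outside the rule were PLIN3 (1210 to 2981 normalized counts, 1.30 ± 0.07), and the rarer PLIN4 (2.89 to 38.3) and CIDEC (23.65 to 50.7).

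Phospholipid synthesis and remodelling genes were higher in 6 of 7 cases. PCYT2, which makes CDP-ethanolamine, had 214, 195 and 239.7 normalized counts in the DMSO libraries and 884, 849 and 806 in the mitoxantrone libraries (1.97 ± 0.10, adjusted p = 6.6e-22). LPCAT1, which reacylates lysophosphatidylcholine and takes part in surfactant phosphatidylcholine synthesis in the lung, had 860, 971 and 1035 normalized counts in the DMSO libraries and 3178, 2963 and 3010 in the mitoxantrone libraries (1.68 ± 0.07). MBOAT7, which places arachidonate on lysophosphatidylinositol, had normalized counts of 1764, 1789 and 1753 with DMSO and 4754, 4191 and 4241 with mitoxantrone (1.31 ± 0.07). In all 3 the groups were well apart and the spread within a group was small beside the difference. PHOSPHO1, a phosphocholine and phosphoethanolamine phosphatase, had 6.002, 13.9 and 6.04 normalized counts in the DMSO libraries and 52.0, 63.2 and 60.2 in the mitoxantrone libraries (2.76 ± 0.31), and CDS1, a CDP-diacylglycerol synthase, rose 2.59-fold from 19.4 ± 0.388 to 50.4 ± 16.7. The lower gene was MBOAT1, a lysophosphatidylserine and lysophosphatidylethanolamine acyltransferase, from 125 ± 23.9 to 58.3 ± 11.5 (-1.11 ± 0.18). FAR2, a fatty acyl-CoA reductase, had 26 and 52 reads.

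Phospholipases and their relatives formed the largest group, with 19 lipid genes, 18 higher and 1 lower. They covered the A, B, C and D classes, named for the different bonds of a phospholipid that are cut. Not every gene of the group is known for that activity, as described below for PLD3, GDPD5 and LYPLA2. PLCD3, a phosphoinositide phospholipase C, had 3248, 3390 and 3320 normalized counts in the DMSO libraries and 8346, 7502 and 7503 in the mitoxantrone libraries (1.23 ± 0.06, adjusted p = 3.7e-21). PLD3, a lysosomal member of the phospholipase D family with nuclease activity, had 3681, 3922 and 3737 normalized counts in the DMSO libraries and 8364, 7347 and 7557 in the mitoxantrone libraries (1.04 ± 0.06, adjusted p = 1.2e-18). These were the most abundant phospholipases, at 26.2 to 58.0 and 38.9 to 75.2 FPKM, and both moved little more than 2-fold with no overlap (for PLD3 the excess over 2-fold was not significant). RARRES3 (PLAAT4), a small phospholipase A and acyltransferase induced by retinoids, had normalized counts of 10.3, 9.29 and 5.17 with DMSO and 61.7, 54.2 and 44.9 with mitoxantrone (2.68 ± 0.32, adjusted p = 3.2e-10). PLB1, phospholipase B, had 15.4, 8.36 and 6.90 normalized counts in the DMSO libraries and 69.0, 42.9 and 41.8 in the mitoxantrone libraries (2.29 ± 0.32). Both were nearly silent with DMSO, at 0.337 and 0.0633 FPKM.

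The other phospholipases above 50 normalized counts lay between a 2.07-fold and a 4.25-fold rise. GDPD5, which cleaves glycerophosphocholine, rose from 125 ± 6.07 to 530 ± 14.7, and PLA2G15, the lysosomal phospholipase A2, from 119 ± 6.15 to 406 ± 30.0. PLA2G16 (PLAAT3), abundant in fat tissue, rose from 796 ± 27.3 to 1838 ± 83.0, and LYPLA2, an acyl-protein thioesterase that also acts on lysophospholipids, from 731 ± 21.7 to 1510 ± 66.2. PLD2 rose 2.09-fold, PLCXD2 2.20-fold, PLCD1 2.47-fold, PLCL2 2.67-fold, PLA2G4C 2.89-fold and PNPLA7 3.03-fold. Exons of PLCXD2 overlap PHLDB2, a far more abundant gene that fell from 6707 to 3009. The lower gene, PLCXD1, went from 2041 ± 70.5 to 875 ± 57.6 (-1.22 ± 0.07, adjusted p = 1e-18), and its listed relative PLCXD3, annotated outside the rule, fell as well, from 40.8 to 17.4. Rare phospholipase genes were PLA1A with 6 and 54 reads, GDPD3 with 35 and 74, PLCH2 with 32 and 56 and PLA2G4D with 0 and 10.

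Phosphoinositide genes were higher in 7 of 8 cases, but the most abundant of them with DMSO fell. PIP5K1A, which makes phosphatidylinositol 4,5-bisphosphate, had 4049, 3883 and 3544 normalized counts in the DMSO libraries and 1666, 1675 and 1627 in the mitoxantrone libraries (-1.21 ± 0.07, adjusted p = 9.4e-20). PIP5K1C, an enzyme of the same activity, rose from 421 ± 4.13 to 961 ± 34.6 (1.19 ± 0.08). The ratio of PIP5K1C to PIP5K1A in FPKM went from 0.089 ± 0.0053 to 0.468 ± 0.010 (SD, n = 3), and their sum from 41.1 ± 2.49 to 22.6 ± 0.44 FPKM, a comparison chosen after the values were seen. PI4K2A, a phosphatidylinositol 4-kinase of Golgi and endosomes, had 851, 874 and 815 normalized counts in the DMSO libraries and 1919, 1760 and 1819 in the mitoxantrone libraries (1.11 ± 0.07). PIK3R3, a regulatory subunit of phosphoinositide 3-kinase, had normalized counts of 68.6, 62.2 and 81.9 with DMSO and 261, 279 and 255 with mitoxantrone (1.90 ± 0.14). INPP5D, the 5-phosphatase SHIP1 best known from blood cells, had 15.4, 13.9 and 7.76 normalized counts in the DMSO libraries and 84.7, 66.6 and 57.1 in the mitoxantrone libraries (2.47 ± 0.28, adjusted p = 1.1e-10). These 3 had no overlap between groups, and INPP5D stayed below 1 FPKM with mitoxantrone (0.497 FPKM). PIK3C2B, a class II phosphoinositide 3-kinase, rose 2.40-fold, and PIK3R5 had 0 reads with DMSO and 14 with mitoxantrone.

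**Figure D4:**
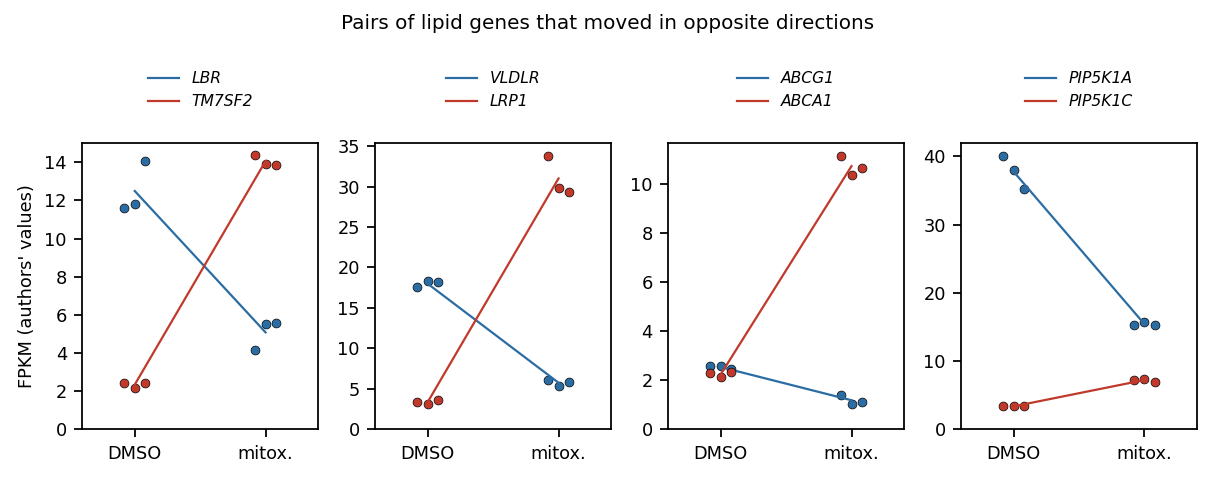
FPKM in each library (y axis, from 0) for 4 pairs of lipid genes, by group (x axis), blue for the gene that fell and red for the gene that rose, with lines joining the group means of 3 libraries. The order of the genes by level turned over for LBR and TM7SF2, for VLDLR and LRP1 and for ABCG1 and ABCA1, while PIP5K1A stayed above PIP5K1C.

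Sphingolipid genes were higher in 7 of 8 cases, and the exception was the entry enzyme of glycosphingolipid synthesis. UGCG, glucosylceramide synthase, had 1157, 1042 and 997 normalized counts in the DMSO libraries and 307, 418 and 403 in the mitoxantrone libraries (-1.50 ± 0.10, adjusted p = 3.8e-18), a 2.83-fold fall. ACER2, the Golgi alkaline ceramidase that yields sphingosine, had 43.7, 51.1 and 26.7 normalized counts in the DMSO libraries and 446, 394 and 413 in the mitoxantrone libraries (3.37 ± 0.15, adjusted p = 2.9e-23), a 10.3-fold rise and, with C3, among the largest of the lipid genes with at least 50 normalized counts. For both, no library of a group reached the range of the other.

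SPTSSA, a small subunit of serine palmitoyltransferase at the start of the pathway, had normalized counts of 1167, 1151 and 1307 with DMSO and 2122, 2723 and 2625 with mitoxantrone (1.04 ± 0.08). ASAH1, the acid ceramidase of lysosomes, had 1113, 1021 and 1091 normalized counts in the DMSO libraries and 2136, 2416 and 2238 in the mitoxantrone libraries (1.07 ± 0.07). For neither was the excess over 2-fold significant, and the groups did not overlap. SMPD1, acid sphingomyelinase, rose 2.30-fold, CERS4, a ceramide synthase, 2.29-fold, and DEGS2, a dihydroceramide desaturase and hydroxylase, 2.68-fold. GBGT1, a glycosyltransferase, had 43 and 96 reads. Genes of synthesis (SPTSSA, CERS4, DEGS2) and of breakdown (ASAH1, ACER2, SMPD1) were both among those that rose.

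Genes that break glycosphingolipids down or serve sulfatases were higher in 8 of 9 cases. PSAP, the precursor of the saposins that present sphingolipids to lysosomal hydrolases, had 19940, 20843 and 20305 normalized counts in the DMSO libraries and 44661, 41266 and 40409 in the mitoxantrone libraries (1.05 ± 0.06, adjusted p = 6.1e-21). GM2A, the activator protein for ganglioside GM2, had 232, 268 and 330.2 normalized counts in the DMSO libraries and 1351, 1425 and 1495 in the mitoxantrone libraries (2.36 ± 0.10, adjusted p = 8.7e-25). ARSA, which removes sulfate from sulfatide, had normalized counts of 236, 254 and 216 with DMSO and 847, 802 and 764 with mitoxantrone (1.77 ± 0.10). PSAP moved by close to 2-fold (the excess was not significant) at the highest level of any lipid gene with mitoxantrone, while GM2A started low and rose 5.15-fold. NEU1, the lysosomal sialidase, rose 2.39-fold, and SUMF1, which activates sulfatases, 3.15-fold. STS, steroid sulfatase, rose 2.56-fold and ARSI, a sulfatase with no well-known lipid substrate, 2.17-fold. NEU4, a second sialidase, had 15 and 46 reads. The gene that fell was ARSJ, a relative of ARSI, with 466, 427 and 428 normalized counts in the DMSO libraries and 131, 134 and 147 in the mitoxantrone libraries (-1.68 ± 0.11, adjusted p = 2.5e-17).

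**Figure D5:**
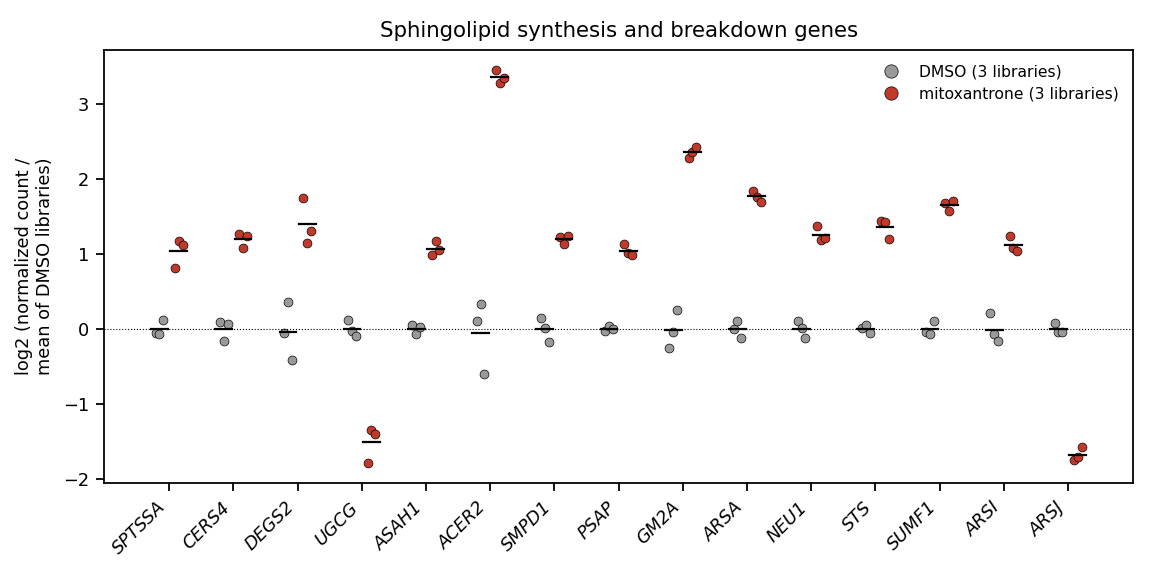
Each library's normalized count relative to the mean of the DMSO libraries (y axis, log2) for 15 genes annotated to sphingolipid metabolism (x axis). Among them STS, ARSI and ARSJ are sulfatase genes that stand here by annotation. Grey is for DMSO and red for mitoxantrone, with bars at the mean of the log2 values of 3 libraries. UGCG and ARSJ lie below the DMSO libraries, the other 13 above, with ACER2 and GM2A the highest.

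Lipoprotein genes were higher in 9 of 10 cases, with a receptor in each direction. Only 6 of the 10 had a mean of at least 50 normalized counts in the higher group. LRP1, a large endocytic receptor for apolipoprotein E and many other ligands, had 1299, 1237 and 1403 normalized counts in the DMSO libraries and 14225, 12258 and 12085 in the mitoxantrone libraries (3.29 ± 0.07, adjusted p = 4.2e-34), a 9.79-fold rise. VLDLR, the very-low-density lipoprotein receptor, had 3057, 3228 and 3160 normalized counts in the DMSO libraries and 1144, 991 and 1070 in the mitoxantrone libraries (-1.56 ± 0.07, adjusted p = 8.1e-23), a 2.95-fold fall. The lowest mitoxantrone library of LRP1 was above every DMSO library and the reverse held for VLDLR. The ratio of LRP1 to VLDLR in FPKM was 0.187 ± 0.014 with DMSO and 5.39 ± 0.29 with mitoxantrone (SD, n = 3), again a pair chosen after its values were seen. Exons of VLDLR overlap VLDLR-AS1, which fell from 129 to 17.0 normalized counts, and exons of LRP1 overlap LRP1-AS and STAT6, which are not listed.

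Of the ligands, CLU, the secreted chaperone clusterin or apolipoprotein J, had normalized counts of 3931, 4158 and 4281 with DMSO and 13469, 12345 and 12158 with mitoxantrone (1.62 ± 0.06, adjusted p = 1.5e-25). APOL1, a secreted apolipoprotein L, had 30.9, 30.6 and 38.8 normalized counts in the DMSO libraries and 341, 290.1 and 363 in the mitoxantrone libraries (3.30 ± 0.15, adjusted p = 1.3e-22). CLU was high in both groups, and APOL1 went from 0.507 to 4.74 FPKM. APOL2, its intracellular relative, rose 2.98-fold from 266 ± 26.1 to 793 ± 4.33. APOE, the ligand of LRP1 and VLDLR, rose 2.56-fold from 43.9 ± 5.26 to 113 ± 13.5 and stayed far below CLU with 2.60 FPKM. APOD had 8 and 51 reads, the receptors LRP2, CUBN and APOBR 9 and 39, 13 and 40, and 3 and 17. SCARB1, the receptor for high-density lipoprotein, was listed outside the rule and went from 2961 to 6982 (1.24 ± 0.07).

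Steroid and oxysterol genes within the rule were 2, both higher. FDXR, the mitochondrial ferredoxin reductase that feeds electrons to steroid-making cytochromes P450, had 1302, 1231 and 1199 normalized counts in the DMSO libraries and 11193, 9862 and 10157 in the mitoxantrone libraries (3.06 ± 0.07, adjusted p = 1.1e-33), an 8.36-fold rise with all mitoxantrone libraries far above the DMSO libraries. CYP7B1, an oxysterol hydroxylase, had 20 and 39 reads. Of the whole group of 46 genes 8 were listed, 6 higher and 2 lower. The lower genes, both outside the rule, were SULT2B1 (519 to 167 normalized counts, -1.64 ± 0.11) and CYP27B1 (62.7 to 25.7, -1.29 ± 0.24). FDXR, ACER2 and ABCA1 also stood in a further group of 11 genes linked to lipid metabolism and known as targets of the tumour suppressor p53. Of these 6 were listed, all higher, beside 58.9% higher over all listed genes. This group too was chosen with earlier results of these data known, and a part of p53 in the changes was not tested. The other 3 listed genes of this group, annotated outside the rule, were SESN1 (141 to 977 normalized counts), CPT1C and PLA2R1 (98.3 to 242).

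Genes that turn arachidonic acid into prostaglandins and leukotrienes lay outside the rule, with 18 of 64 listed, 17 higher and GGT5 lower (66.5 to 28.0). They are given because phospholipases release their substrate. PTGES, prostaglandin E synthase, went from 170 to 820 normalized counts (2.27 ± 0.10), and ALOX5, 5-lipoxygenase, from 6.10 to 98.7 (3.98 ± 0.31). PTGS1 and PTGS2 were not listed. The group for the GPI anchor and dolichol-phosphate mannose also lay outside the rule, with 3 of 29 listed, 1 higher and 2 lower. PIGZ went from 46.4 to 137 normalized counts (1.55 ± 0.18), PIGA from 636 to 197 (-1.68 ± 0.11) and PIGW from 406.5 to 196.5 (-1.05 ± 0.11).

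Among regulators of lipid genes 3 of 5 were lower and 2 higher, and in the 2-fold test 1 stayed lower and 2 higher. TRIB3, a pseudokinase of the stress response that also restrains AKT and fat synthesis, had 20100, 20449 and 18466 normalized counts in the DMSO libraries and 928, 795 and 875 in the mitoxantrone libraries (-4.51 ± 0.07, adjusted p = 2.2e-38). This 22.7-fold fall was the largest of any lipid gene, and no mitoxantrone library exceeded 928. MED1, the Mediator subunit that binds nuclear receptors, had normalized counts of 3473, 3266 and 3195 with DMSO and 1610, 1595 and 1670 with mitoxantrone (-1.03 ± 0.07). PRKAA2, a catalytic subunit of AMP-activated protein kinase, went from 526 ± 33.2 to 244 ± 55.1 (-1.11 ± 0.11). For MED1 and PRKAA2 the excess over 2-fold was not significant (edgeR, adjusted p = 0.16 and 0.073). PPARA, the nuclear receptor that drives fatty acid oxidation genes, had 111, 116 and 112 normalized counts in the DMSO libraries and 319, 314 and 329.5 in the mitoxantrone libraries (1.51 ± 0.12, adjusted p = 3.9e-15), with closely grouped libraries on each side. SIRT4, a mitochondrial sirtuin, had 11 and 56 reads. Of the whole group of 56 regulators 13 were listed, 3 higher and 10 lower. The lower genes outside the rule included the deacetylase gene SIRT1 (1594 to 374 normalized counts), the orphan receptor gene NR4A3 (470 to 17.6), the clock genes CRY1 (1264 to 310), NR1D2 (1141 to 400) and PER2 (915 to 350), and FGF21, which had 36 reads with DMSO and 0 with mitoxantrone.

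The 40 lipid genes in no group included several known mainly for other work, 23 higher and 17 lower. C3, the central complement component, had 1494, 1505 and 1520 normalized counts in the DMSO libraries and 16067, 14474 and 14999 in the mitoxantrone libraries (3.33 ± 0.07, adjusted p = 1.3e-35). Its 10.1-fold rise differed from that of ACER2 by less than the SE, and all mitoxantrone libraries were far above the DMSO libraries. BRCA1, a DNA repair protein that also binds acetyl-CoA carboxylase, had 1751, 1683 and 1916 normalized counts in the DMSO libraries and 119, 125 and 137 in the mitoxantrone libraries (-3.81 ± 0.10, adjusted p = 9.9e-32). FAM132B, erythroferrone, had normalized counts of 137, 146 and 154 with DMSO and 6.05, 18.1 and 7.14 with mitoxantrone (-3.79 ± 0.25), with mitoxantrone library 2 the highest of its group, and without that library its log2 fold change was -4.43. These 3 had no overlap between groups, and BRCA1 fell 14-fold.

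AJUBA, a LIM-domain scaffold, had 18219, 18192 and 16602 normalized counts in the DMSO libraries and 5049, 4827 and 4741 in the mitoxantrone libraries (-1.86 ± 0.06). CTGF, the matricellular protein CCN2, had 3823, 3985 and 3467 normalized counts in the DMSO libraries and 1161, 1178 and 1155 in the mitoxantrone libraries (-1.69 ± 0.07). MID1IP1, which promotes the assembly of acetyl-CoA carboxylase and hence fatty acid synthesis, had 3448, 3487 and 3376 normalized counts in the DMSO libraries and 1193, 1123 and 1052 in the mitoxantrone libraries (-1.61 ± 0.07, adjusted p = 1.3e-23). Each fell with narrow spread in both groups. The smallest changes by the authors' deposited table beside ABCG1 were UCP3, a mitochondrial uncoupling protein, from 29.7 ± 3.95 to 61.6 ± 8.57, and BCL11B, a transcription factor of T cells that never reached 50 normalized counts, with 141 reads with DMSO and 53 with mitoxantrone.

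The deposited annotation also gives locations in the cell, which the rule did not use. All 17 lipid genes annotated to lysosomes were higher, as were 84 of the 90 listed genes annotated there. The 17 were GM2A, PSAP, ARSA, NEU1, NEU4, STS, SMPD1, ASAH1, PLA2G15, NPC2, LIPA, ABCA2, PNPLA7, TPP1, CAT, LRP2 and CUBN. Those of the endoplasmic reticulum were higher in 45 of 49 cases (197 of 239 listed genes), those of peroxisomes in 7 of 7 (12 of 12) and those of mitochondria in 19 of 23 (131 of 222). Those of the Golgi were higher in 19 of 23 cases (186 of 243), those of the plasma membrane in 28 of 36 (673 of 843) and extracellular ones in 21 of 24 (354 of 428). Lipid genes annotated to the nucleus were lower in 17 of 32 cases and higher in 15, beside 794 lower of 1140 listed genes. No difference between compartments, or from all listed genes, was tested.

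Rare genes were mostly higher, among the lipid genes and among all listed genes. Of the 31 lipid genes under 50 normalized counts in both groups 30 were higher (96.8%) and 1, BCL11B, was lower, beside 1324 higher (78.9%) and 354 lower of the 1678 listed genes under that level. NPC1L1, the intestinal cholesterol transporter, PIK3R5, ACOXL, PNLIPRP2 and PLA2G4D had 0 reads in all DMSO libraries and 17, 14, 11, 10 and 10 reads over the mitoxantrone libraries, so no fold is given. PNLIPRP2 and PLA2G4D were the 2 lipid genes whose groups overlapped. IL1B, the inflammatory cytokine, had 9 and 80 reads. A gene this rare could enter the table only through the group in which it was high, so the count of 30 is a description.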

How the data were processed

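The deposited table holds raw counts and FPKM for 6 A549 libraries (3 DMSO, 3 mitoxantrone) with the authors' log2 fold changes and adjusted p-values. Raw counts per gene were deposited by the authors with no normalization. FPKM values were also computed by the authors. The authors' own log2 fold changes and p-values were used only to describe the selection (an absolute log2 fold change of at least 1.00 and an adjusted p of at most 0.0497) and to choose the 3 smallest changes. Per the submitters' processing notes the tools were cutadapt 1.9.1, HISAT2 2.0.1, HTSeq 0.6.1, DESeq2, Cufflinks 2.2.1 and SAMtools 0.1.19. Strandedness and the handling of PCR copies after 13 cycles are not stated. The build and gene models were not given in the sources used here. If the libraries did not keep strand, a gene and its antisense partner cannot be told apart.

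The authors' mean column (a signal: counts divided by size factors, averaged over the libraries) and a Wald score were deposited by the authors. Size factors were recovered from the mean column, the score was not used, and library totals from counts and FPKM. A normalized count is a raw count divided by its size factor (0.827 to 1.17). Counts were tested with edgeR 4.0.16 (quasi-likelihood F-test, R 4.3.3, Benjamini-Hochberg over all 4546 genes, both groups, no covariate, threshold 0.05), and the SE of a log2 fold change is its size divided by the square root of F. The edgeR biological coefficient of variation was 6.68%. The steps were tested on simulated data in which few genes changed and libraries spread more widely than here. That test checks the code and not the calls given here. Counts of replicates differed beyond sampling noise, so no library was counted as a copy. Replicate numbers did not pair libraries, with correlations of -0.07, -0.08 and 0.03 between same-numbered deviations. Of the 139 genes 138 matched the gene name table by identifier. The members and gene groups were chosen with earlier results of these data known. Named were members in a gene group with a mean of at least 50 normalized counts in the higher group and no overlap, the 10 largest rises and falls under the same limits, and the 3 smallest changes in the authors' table; library values are given for the 2 highest and the 2 most changed members of each group. Other genes of a group, members under the limit and the gene pairs were named after their values were seen. Of 83 members named by the rule 25 have an exon overlapping an opposite-strand gene in GENCODE 29, and 6 overlap another listed gene. Alternatives were other scalings, DESeq2 1.42.0, a count filter, stricter thresholds, other member rules, a replicate block and leaving out each library, as well as scaling by library totals, which was added after the data were seen. A few members are counted in the totals but not reported by name here.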

Additional observations from a re-analysis of the deposited data

How the results depend on the processing

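All 139 lipid genes stayed called in the same direction under the other scalings, an adjusted p of 0.01 and the replicate block. With the replicate number as a block 108 were higher and 31 lower, and it changed no call of a lipid gene, so the pairing check has no bearing on them. DESeq2 gave 106 and 31, and the 2-fold test 91 and 23. A filter of at least 10 reads in at least 3 libraries left 93 higher and 31 lower, and the share of higher calls over all genes went from 58.9% to 52.4%. Leaving out 1 library gave 106 to 108 higher and 31 lower. With annotation terms for biosynthesis only, the rule gave 37 higher and 13 lower. The median log2 fold change of the lipid genes was 1.38 and became 1.12 (1.125) with TMM on the listed genes, 1.32 (1.319) with column totals, 1.31 (1.309) with the count filter and 1.30 (1.299) with library totals. TMM lowered all log2 fold changes by a median of -0.258, library totals by -0.085 and column totals by -0.064. For the 83 genes named by the rule, 1148 of 1162 values kept direction and side of the threshold and none reversed. The 14 that lost the call did so in the 2-fold test, which asks for more than the main test (ABCG1, ARSI, ASAH1, BCL11B, LYPLA2, MBOAT1, MED1, PLCXD2, PLD2, PLD3, PRKAA2, PSAP, SPTSSA and UCP3). Depth limits the 31 rare genes, 5 of which had 0 reads with DMSO, so the size of their change is poorly known.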

Other observations

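The 11 genes that met the annotation terms but were left out by symbol were UGT2B7, UGT1A7, UGT1A9, ST8SIA1, SLC44A5, SLC27A1, CTSA, ST6GALNAC4, SLC44A3, SLC44A2 and ST6GALNAC3. With mitoxantrone 10 were higher (90.9%) and 1 lower, beside 58.9% higher over all listed genes, and the median log2 fold change was 1.61. The 2-fold test was passed by 7 (63.6%), beside 80.6% of all listed genes. A mean of at least 50 normalized counts in the higher group was reached by only 6, all higher. With these 11 genes the rule would give 118 higher and 32 lower genes.

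By annotation term, 16 of 18 lipid genes with a sphingolipid term were higher, 24 of 27 with phospholipid metabolic process, 21 of 26 with a cholesterol term, 23 of 31 with a fatty acid term and 15 of 23 with cellular lipid metabolic process, beside 77.7% of all lipid genes. The terms share genes, and no difference between them was tested.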
